A study of Mus musculus with 6 samples.

Results

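The FGF/ERK negative feedback loop was followed through 10 of its genes across the 6 libraries of a study of mouse mesoderm progenitor cells. They were taken by name as a fixed list: Spry1, Spry2, Spry4, Spred1, Spred2, Dusp4, Dusp6, Il17rd, Etv4 and Etv5. All 10 of 10 could be matched to the deposited counts in every library and passed the filter on low values, among 13920 genes analysed in all. Total RNA of C57BL/6 cells was sequenced with 1 library per condition. The untreated libraries were taken at 0 h and 96 h in culture. The remaining conditions received recombinant human protein after 96 h. A 5 h pair had BMP4 alone or BMP4 plus FGF8, and an 11 h pair had BMP4 alone or BMP4 plus FGF4. Per the labels' protocols the cells grew in serum-containing medium with wild-type mouse embryonic fibroblasts, made unable to divide with mitomycin C, so bulk RNA of a cultured library can hold transcripts of these feeder cells. The labels do not say how many embryos or cultures went into a library, nor do they give doses.

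Fibroblast growth factors bind receptor tyrosine kinases, which activate RAS, RAF, MEK and finally the kinase ERK. ERK activity switches on genes whose products restrain the same cascade, and transcription factors of the ETS family, so the RNA of these genes is widely used as a readout of FGF signalling. In the tailbud, FGF made by the posterior progenitors is known to keep cells undifferentiated and to form a gradient along the presomitic mesoderm. Il17rd (also called Sef) is a membrane protein that restrains FGF receptor signalling. The Sprouty genes (Spry1, Spry2, Spry4) and the Sprouty-related genes Spred1 and Spred2 encode inhibitors that act around RAS and RAF. Dusp6 and Dusp4 encode phosphatases that take phosphate off ERK, in the cytoplasm and the nucleus respectively. Etv4 and Etv5 encode ETS transcription factors induced by FGF.

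Each condition had 1 library, so a difference between 2 libraries carries no p-value, and all intervals given are exact 95% intervals for counting error alone. Total counts ranged from 179196459 to 272743104, and no feedback gene had fewer than 1275 counts in any library. Levels are counts scaled to a common library size (CPM), with edgeR's TMM factors. A gene is called higher or lower where the log2 ratio, taken after adding 0.5 CPM to both levels, was at least 2-fold and its counting interval excluded 1.

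The libraries labelled BMP4 5 h and BMP4 with FGF8 5 h stood close to 0 h untreated, although their labels place them after 96 h of culture. BMP4 5 h differed at least 2-fold from 0 h in 0.424% of genes upward and 0.23% downward, and from 96 h untreated in 2.39% upward and 3.42% downward. Without 3 stretches of names with doubtful placement, the shares against 0 h were 0.361% and 0.123%. Summed CPM of 10 red blood cell markers (of 11 listed, 1 of them at 0 counts in some library) was 22.9 at 0 h, 29.7 with BMP4 5 h and 160 with FGF8, but 5333 at 96 h, 5018 with BMP4 11 h and 3275 with FGF4. For 12 of 14 tailbud and presomitic markers the sum was 509 at 0 h, 43.3 at 96 h, 468 with BMP4 5 h, 461 with FGF8, 250 with BMP4 11 h and 75.1 with FGF4. For 12 of 13 fibroblast markers it was 209, 931, 285, 256, 564 and 1340 CPM in the same order. Endothelial markers, 10 of 10 analysed, summed to 16.8, 129, 15.9, 17.0, 63.6 and 168 CPM in that order. Within the fibroblast list the sums hide a difference between BMP4 5 h and 0 h. There 5 of the 12 were at least 2-fold higher with BMP4 5 h and none lower, beside 0.424% of all genes higher. None of the tailbud, fibroblast or endothelial markers was at 0 counts in any library. Of the red blood cell markers, Hba-a1 and Hba-a2 had nearly equal CPM in every library (2161.5 each at 96 h). They made up most of the red blood cell sum throughout, and whether they share reads was not tested. Whether fewer progenitor cells or less RNA per cell lies behind a lower level cannot be told apart in bulk RNA, and the part that these other cells have in the results below was not tested.

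Levels per kilobase of exon give an order among the feedback genes. Dusp6 had the highest value in all 6 libraries, between 16.4 and 28.9 CPM per kilobase, and Spry4 the lowest, between 1.01 and 5.99. At 0 h the order after Dusp6 was Dusp4, Etv5, Etv4, Spry2, Spred1, Il17rd, Spred2, Spry1 and Spry4. At 96 h Spred1 stood second and Etv4, Il17rd and Spry4 held the last places, at 2.75, 2.54 and 1.01 CPM per kilobase. The ETS factor genes, Il17rd, Dusp4 and Spry2 thus stood lower in the order at 96 h, and Spred1, Spred2 and Spry1 higher.

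Il17rd (chromosome 14, 27038941 to 27107286 in mm10) was at 102 CPM at 0 h, 27.9 at 96 h, 102 with BMP4 5 h, 95.03 with BMP4 and FGF8, 55.6 with BMP4 11 h and 33.0 with BMP4 and FGF4. The 0 h library and both 5 h libraries were high, BMP4 11 h lay between, and 96 h untreated was lowest. Il17rd at 0 h and with BMP4 5 h could not be told apart by counting error (ratio 1.001, 0.983 to 1.02).

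Among the Sprouty genes, Spry4 had the widest range of all 10 genes, 5.91-fold between its highest and lowest library. Spry4 was at 28.5 CPM at 0 h, 4.82 at 96 h, 26.0 with BMP4 5 h, 25.4 with FGF8, 11.7 with BMP4 11 h and 6.73 with FGF4. Spry2 (chromosome 14, 105891947 to 105896819) was at 23.3, 10.5, 23.0, 23.8, 19.8 and 15.2 CPM in the same order of libraries. Spry1 (chromosome 3, 37639947 to 37644598) was at 20.5, 10.8, 19.1, 20.4, 11.98 and 11.3 CPM. All 3 were lowest at 96 h and highest in the 0 h and 5 h libraries, and they parted at 11 h. There Spry2 with BMP4 alone stood nearer to 0 h, and Spry1 and Spry4 nearer to 96 h. Spry1 with FGF4 at 11 h and Spry1 at 96 h differed by less than counting error (ratio 1.04, 0.989 to 1.10). In the annotation Spry1 and Spry4 each overlap short or unclassified genes on the opposite strand, and whether the counting used strand is not given in the sources used here.

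Spred1 (chromosome 2, 117121374 to 117182279) hardly varied. It was at 64.7 CPM at 0 h, 62.5 at 96 h, 65.6 with BMP4 5 h, 65.5 with FGF8, 61.2 with BMP4 11 h and 57.5 with FGF4, a range of 1.14-fold. Spred2 (chromosome 11, 19924375 to 20024026) was at 38.3, 27.0, 36.7, 36.5, 30.5 and 26.0 CPM in that order, a range of 1.48-fold. Both Spred genes were lowest with FGF4, not at 96 h.

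Of the phosphatase genes, Dusp6 (chromosome 10, 99263231 to 99267489) was at 89.4 CPM at 0 h, 51.4 at 96 h, 88.2 with BMP4 5 h, 90.7 with FGF8, 73.2 with BMP4 11 h and 66.6 with FGF4. Dusp4 was at 48.6, 19.6, 47.9, 45.2, 47.4 and 33.1 CPM in that order. Dusp4 with BMP4 11 h and with BMP4 5 h differed by less than counting error (ratio of 5 h to 11 h 1.01, 0.981 to 1.04), which held for no other feedback gene. Both phosphatase genes kept higher levels with FGF4 than at 96 h.

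Etv4 was at 38.1 CPM at 0 h, 8.53 at 96 h, 35.9 with BMP4 5 h, 36.1 with FGF8, 21.2 with BMP4 11 h and 9.82 with FGF4. Etv5 (chromosome 16, 22381309 to 22439719) was at 63.3, 21.96, 61.9, 60.3, 37.7 and 22.2 CPM in that order. With FGF4 Etv5 was back at its 96 h level within counting error (ratio 1.01, 0.974 to 1.05), and Etv4 was close above its own.

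**Figure D1:**
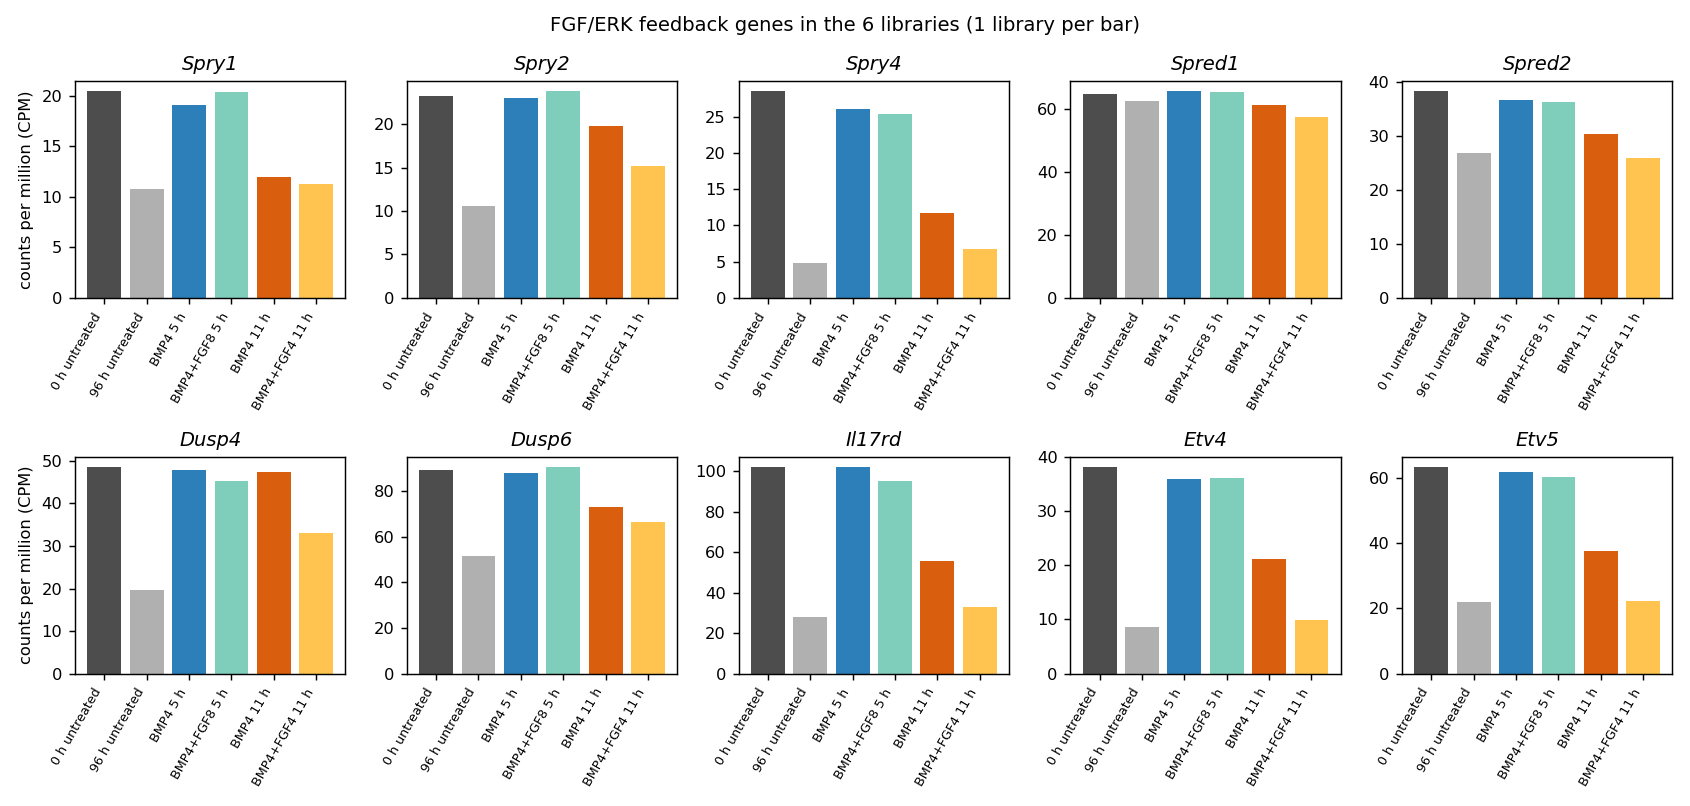
Level of each feedback gene in CPM (vertical axis, from 0) in the 6 libraries, 1 bar per library. In 8 of the 10 panels the 96 h bar is the lowest, while Spred1 is nearly level and Spred1 and Spred2 are lowest with FGF4.

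Because ETS factors belong to this gene set, proximal promoters were searched for short ETS core strings and for strings of other pathways. RefSeq promoters on GRCm38.p6, from 250 bases before to 50 after the start, were at hand for 7 of the 10 genes (8 promoters). Of 32851 promoters of the same length, searched on both strands, the string CCGGAA was in 14.9%. The variant GAGGAA was in 28.28%, and the variant CAGGAA in 30.55%. At least 1 of them was in 57.64% of all promoters and in 6 of the 7 feedback genes, the exception being Spry1. These 4 stretches, all before the start, are shown to set Spry2 and Dusp6 beside the Spred genes, which varied least between libraries. Each is written 5′ to 3′ on the gene's strand, with the ETS string, here read on either strand, in capitals.
Dusp6, chr10:99263002-99263047, plus strand: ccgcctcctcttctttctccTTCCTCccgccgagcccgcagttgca
Spry2, chr14:105896892-105896937, minus strand: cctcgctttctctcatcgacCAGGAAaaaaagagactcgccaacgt
Spred1, chr2:117120821-117120860, plus strand: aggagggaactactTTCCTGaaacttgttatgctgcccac
Spred2, chr11:19924287-19924332, plus strand: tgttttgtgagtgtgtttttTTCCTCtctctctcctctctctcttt
All 4 hold such a string, as do most promoters. The string CTTTGT, an extended core of TCF/LEF sites, was in 3 of the 7 genes and in 18.71% of all promoters, and GGCGCC, a BMP-type SMAD string, in 3 of 7 and 11.87%. The TCF/LEF string CTTTGA (16.0% of all promoters), the cAMP response element TGACGTCA (1.79%), the AP-1 string TGANTCA (7.81%), the E-box CACGTG (7.15%) and the SMAD string GTCTAGAC (0.21%) were in none of the 7. A match of such short strings is a description of sequence, not a binding site.

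Culture for 96 h without added recombinant protein, in medium with serum and on feeder cells, went with lower levels of most feedback genes. Of the 10, 6 were at least 2-fold lower and none higher, where 2.41% of the 13920 genes were lower and 3.91% higher. Spry4 was 5.91-fold lower (5.56 to 6.28), Etv4 4.47-fold (4.27 to 4.69), Il17rd 3.65-fold (3.55 to 3.75), Etv5 2.88-fold, Dusp4 2.48-fold and Spry2 2.21-fold. Spry1 (1.90-fold), Dusp6 (1.74-fold), Spred2 (1.42-fold) and Spred1 (1.04-fold) were lower by less than the threshold. The median log2 ratio of the 10 was -1.20, beside -0.0016 over all genes, and the middle 95% of all genes lay between -0.98 and 1.31. Only Spred1, Spred2, Dusp6 and Spry1 were inside that range.

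The library labelled BMP4 5 h had the same 6 genes at least 2-fold above 96 h untreated, where 2.39% of all genes were higher. Spry4 was 5.40-fold higher (5.08 to 5.74), Etv4 4.21-fold, Il17rd 3.64-fold, Etv5 2.82-fold, Dusp4 2.45-fold and Spry2 2.19-fold. The median log2 ratio was 1.18. This comparison shares the 96 h library with the one above, and against 0 h the log2 ratios of BMP4 5 h lay between -0.13 (Spry4) and 0.02 (Spred1), with no gene called. BMP4 with FGF8 at 5 h also had 6 of 10 at least 2-fold above 96 h, beside 2.57% of all genes higher and 3.3% lower, with a median of 1.16.

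With BMP4 at 11 h, 3 of 10 genes were at least 2-fold above 96 h untreated, beside 2.48% of all genes, and none was lower, beside 0.309%. They were Etv4 (2.49-fold, 2.36 to 2.63), Spry4 (2.43-fold, 2.26 to 2.61) and Dusp4 (2.42-fold, 2.34 to 2.51). Il17rd, at 1.99-fold (1.93 to 2.05), lay just under the threshold. Spry2 was 1.88-fold, Etv5 1.72-fold and Dusp6 1.42-fold higher, while Spry1 (1.11-fold), Spred2 (1.13-fold) and Spred1 (0.978-fold) differed little. The median log2 ratio was 0.82 beside -0.019 over all genes. At 1.5-fold, 6 of the 10 were higher, beside 6.13% of all genes.

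The genes differed in where BMP4 11 h stood between the untreated libraries. On a scale where the 96 h level of a gene is 0% and its 0 h level 100%, Dusp4 stood at 96.0%, Spry2 at 72.8% and Dusp6 at 57.2%. Etv4 stood at 43.0%, Etv5 at 38.1%, Il17rd at 37.4%, Spred2 at 30.9%, Spry4 at 29.1% and Spry1 at 12.4%. Spred1 is left out of this scale because its untreated levels differed too little. The median of these 9 genes was 38.1%, and that of 12 tailbud and presomitic genes was 34.6%, with a range of 20.2% to 72.9%. Dusp4 was above and Spry1 below every one of those 12. In the library labelled BMP4 5 h the 9 genes stood between 85.7% and 99.8%.

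**Figure D2:**
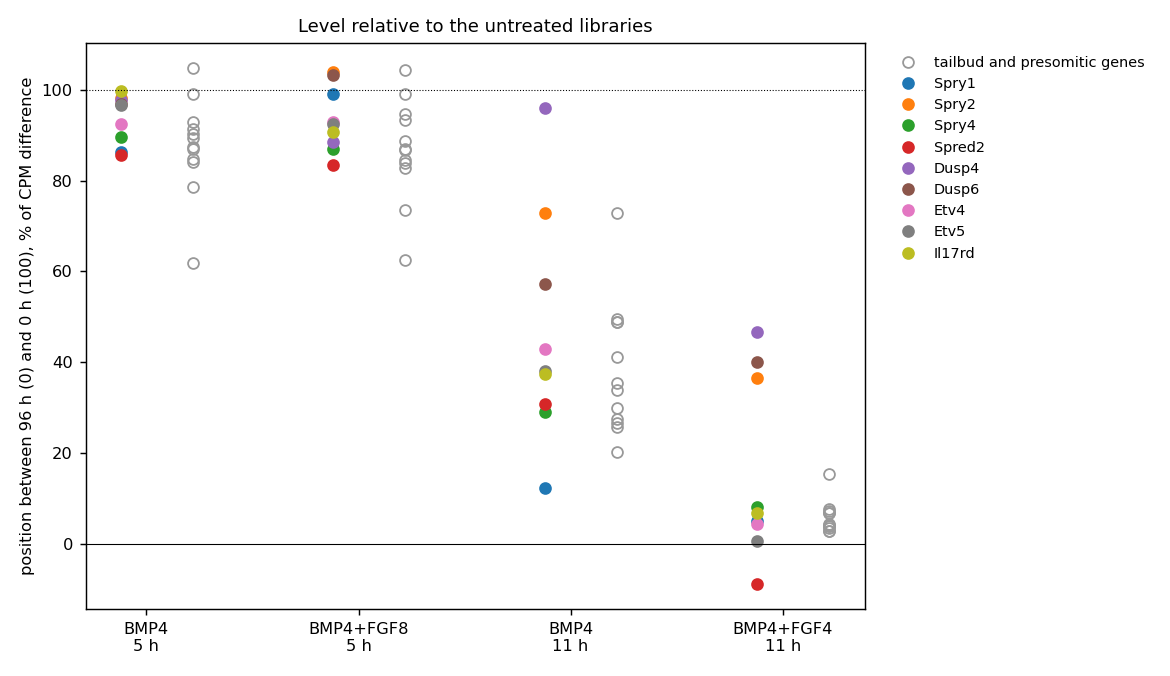
Position of each library between 96 h untreated (0%) and 0 h untreated (100%) on the CPM scale (vertical axis), for the 9 feedback genes with a clear difference in culture (filled, 1 colour per gene) and 12 tailbud and presomitic genes (open). With BMP4 11 h the feedback genes spread from 12.4% to 96.0%, and with FGF4 added Dusp4, Dusp6 and Spry2 stand apart above the rest.

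Compared directly, BMP4 11 h had lower levels than BMP4 5 h for all 10 feedback genes, with log2 ratios from -1.12 (Spry4) to -0.02 (Dusp4) and a median of -0.46. Spry4 alone was at least 2-fold lower (2.22-fold, 2.11 to 2.34), where 0.417% of all genes were lower and 2.75% higher. Il17rd was 1.83-fold, Etv4 1.69-fold, Etv5 1.64-fold and Spry1 1.60-fold lower. A fit over the 4 BMP4 libraries, with hours and added FGF as additive factors, tested hours over both pairs of libraries. Its difference between 11 h and 5 h thus also draws on the FGF8 and FGF4 libraries, not on BMP4 alone. In edgeR's quasi-likelihood test with Benjamini-Hochberg adjustment over 13920 genes, 5 of the 10 were lower at 11 h, beside 1.35% of all genes lower and 4.51% higher. By that test Spry4 fell with a log2 fold change of -1.53 ± 0.20 (standard error, adjusted p = 0.0117). Il17rd fell with -1.20 ± 0.18 (edgeR adjusted p = 0.0192) and Spry1 with -0.77 ± 0.12 (edgeR adjusted p = 0.0207). Etv5 fell with -1.08 ± 0.18 (edgeR adjusted p = 0.0286) and Etv4 with -1.31 ± 0.26 (edgeR adjusted p = 0.0423). Dusp4, Dusp6, Spry2, Spred1 and Spred2 did not pass, with edgeR adjusted p between 0.116 and 0.541. The direction of each of the 5 was the same in both pairs of 5 h and 11 h libraries. No condition was replicated. The fit leaves 1 residual degree of freedom per gene. It is how far the FGF8 effect at 5 h and the FGF4 effect at 11 h disagree. The spread behind each p is drawn mostly from this disagreement over all genes (5.05 prior degrees of freedom). No p or standard error of the fit thus measures variation between cultures. Hours cannot be told apart from the unlike marker levels of the 5 h and 11 h libraries given above. With total counts in place of TMM scaling none of the 10 passed (lowest edgeR adjusted p = 0.0567).

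Adding FGF8 to BMP4 at 5 h went with small differences in the feedback genes. None of the 10 was called, beside 0.216% of all genes higher and 0.0431% lower. Log2 ratios ran from -0.10 (Il17rd, 0.916 to 0.951 as a plain ratio) to 0.09 (Spry1, 1.02 to 1.11), with a median of -0.0066 and 6 of 10 below 0. The middle 95% of all genes lay between -0.23 and 0.26, and each of the 10 was inside it. For the ETS factor genes the plain ratios were 1.004 for Etv4 (0.973 to 1.04) and 0.973 for Etv5 (0.950 to 0.997). Spry4 was at 0.976 (0.940 to 1.01) and Dusp6 at 1.03 (1.01 to 1.05). The highest upper bound of the 10 intervals was 1.11-fold (Spry1), although no replicate shows how much 2 libraries of 1 condition would differ.

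Adding FGF4 to BMP4 at 11 h went with lower, not higher, levels of the feedback genes. All 10 log2 ratios were below 0 with TMM scaling, with a median of -0.44 beside -0.027 over all genes. With total counts, which move the median of all genes to 0.11 in this comparison, Spry1 (0.05), Spred1 (0.05) and Dusp6 (0.01) turned above 0. Etv4 was at least 2-fold lower (2.16-fold, 2.05 to 2.29), where 0.69% of all genes were lower and 1.21% higher, but not with total counts (log2 ratio -0.93) or 2 CPM added (-0.98). Spry4 was 1.74-fold (1.62 to 1.86), Etv5 1.69-fold (1.63 to 1.76), Il17rd 1.69-fold (1.63 to 1.74), Dusp4 1.43-fold and Spry2 1.30-fold lower. Etv4, Spry4, Etv5 and Il17rd lay outside the middle 95% of all genes (-0.60 to 0.70), and Dusp4 (-0.51) and Spry2 (-0.37) within it. Spred2 (-0.23), Dusp6 (-0.13), Spred1 (-0.09) and Spry1 (-0.09) differed least.

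Against 96 h untreated, BMP4 with FGF4 had no feedback gene at least 2-fold different, where 1.35% of all genes were higher and 0.136% lower. The highest log2 ratios were those of Dusp4 (0.74), Spry2 (0.51), Spry4 (0.44) and Dusp6 (0.37). On the scale from 96 h to 0 h, Dusp4 stood at 46.6%, Dusp6 at 40.0% and Spry2 at 36.5%, above all 12 tailbud and presomitic genes (2.91% to 15.4%). Spry4, Il17rd, Spry1, Etv4 and Etv5 stood between 0.687% and 8.08%, and Spred2 at -8.75%. The FGF4 library also had the highest fibroblast and endothelial sums and a low tailbud sum, as given above, and their part in these values was not tested.

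In the fit over the 4 BMP4 libraries, no feedback gene passed for added FGF. The edgeR quasi-likelihood test called 0 of 13920 genes (0.0% in each direction), with 251 at an unadjusted p under 0.05, and DESeq2 called 3 genes, none of them a feedback gene. The fitted log2 fold changes of the 10 ran from -0.55 ± 0.25 (Etv4) to 0.0016 ± 0.12 (Spry1), each with an edgeR adjusted p of 0.9997. This test treats FGF8 at 5 h and FGF4 at 11 h as 1 factor, whereas their values above differ. That disagreement is also the residual of the fit, so a gene that differs with only 1 of them raises its own error. The lack of calls therefore cannot decide whether FGF8 or FGF4 changed a feedback gene. A test of the difference between FGF8 and FGF4 would need replicates.

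**Figure D3:**
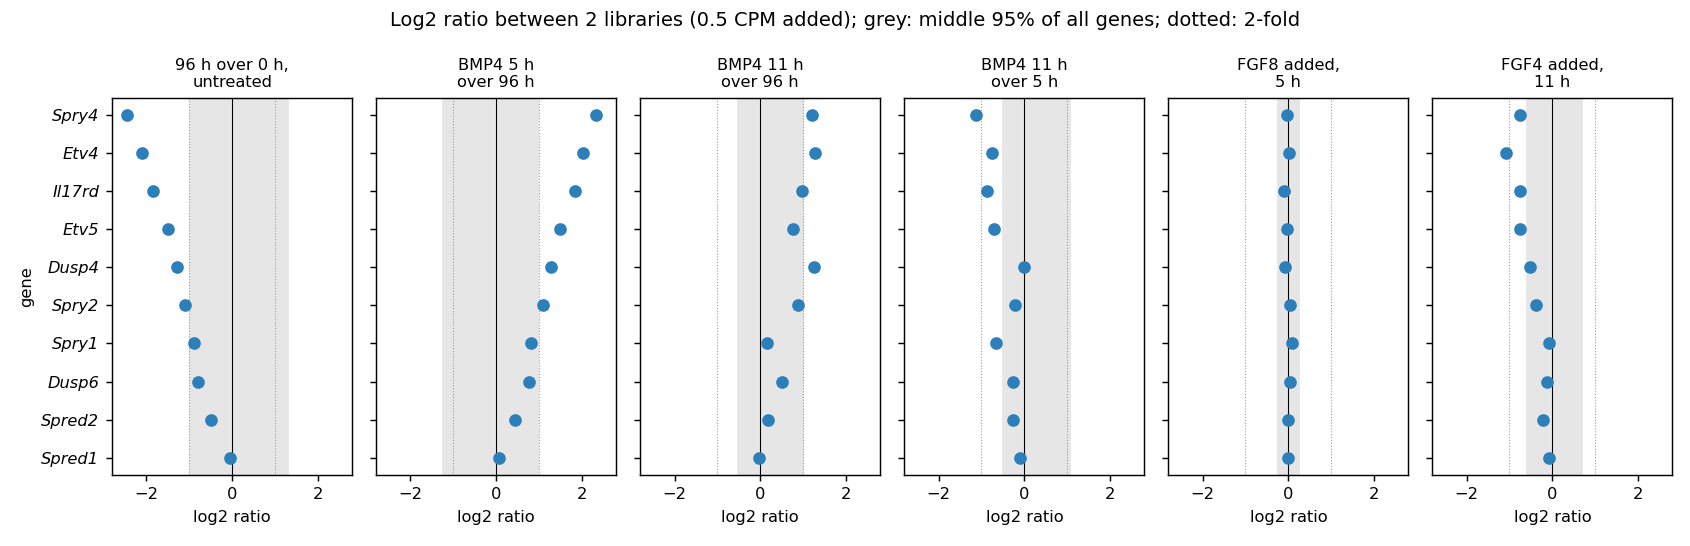
Log2 ratio between 2 libraries (horizontal axis, 0.5 CPM added) for each feedback gene in 6 comparisons, with the middle 95% of all 13920 genes in grey and 2-fold as dotted lines. Spry4, Etv4 and Il17rd are farthest from 0 in culture, all points lie near 0 with FGF8 (-0.10 to 0.09), and with FGF4 Etv4 passes 2-fold downward.

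Other genes of the pathway did not show one common pattern. Of 22 further feedback genes and ERK targets 19 were analysed, with a median log2 ratio of 0.21 in culture. Among them 1 was at least 2-fold lower in culture and none higher, beside 2.41% and 3.91% of all genes. It was Spred3, the remaining Sprouty-related gene, at 10.2 CPM at 0 h, 3.14 at 96 h, 10.5 with BMP4 5 h, 9.62 with FGF8, 6.90 with BMP4 11 h and 5.08 with FGF4. At 11 h with BMP4, 4 of the 19 were at least 2-fold above 96 h, beside 2.48% of all genes. The median of the 19 was 0.50, beside 0.82 for the 10 feedback genes. None of the 19 was called with FGF8 added (0.216% of all genes higher, 0.0431% lower) or FGF4 added (1.21% and 0.69%). The early ERK target gene Egr1, named after its values were seen, was at 16.1 CPM at 0 h, 18.5 at 96 h, 40.8 with BMP4 5 h, 43.5 with FGF8, 48.4 with BMP4 11 h and 80.7 with FGF4. Egr1 was therefore highest in the library where Etv4 and Spry4 were near their 96 h levels. The 19 genes did not share this, with a median log2 ratio of 0.04 for added FGF4, 11 above 0 and 8 below. Fos and Egr2 are not used here. Both met the margin required for placement, but they were not kept under the other placement rules given below.

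The 30 analysed genes of the cascade list ran from adaptors through RAS, RAF and MEK to ERK. That list also held the Rps6ka, Elk and Flrt genes, Cbl, Nf1 and Rasa1. The list had no call with BMP4 at 11 h over 96 h, where 2.48% of all genes were higher and 0.309% lower. Nor had it a call with FGF8 added (0.216% and 0.0431% of all genes) or FGF4 added (1.21% and 0.69%). In culture 1 of 30 was higher and none lower (median 0.05), beside 3.91% and 2.41% of all genes. In culture that gene was Flrt2, which encodes a membrane partner of FGF receptors, at 5.56 CPM at 0 h, 23.9 at 96 h, 6.25 with BMP4 5 h, 6.55 with FGF8, 15.7 with BMP4 11 h and 29.9 with FGF4. Of its levels, those at 96 h and with FGF4 were high, the reverse of the feedback genes. Both 5 h libraries had 2 of the 30 lower than 96 h, Flrt2 and Mapk3, beside 3.42% (BMP4) and 3.3% (with FGF8) of all genes. BMP4 11 h had the same 2 higher than BMP4 5 h, beside 2.75% of all genes. Mapk3, which encodes an ERK kinase, was at 39.1 CPM at 0 h, 40.5 at 96 h, 7.50 with BMP4 5 h, 7.15 with FGF8, 35.9 with BMP4 11 h and 35.7 with FGF4. Its name lies in 1 of 2 stretches, 72 genes in all, where 20 names had 5 h levels over 2-fold outside the untreated range in both libraries, so its 5 h counts may belong to other genes. None of the 10 feedback genes is in such a stretch.

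Of 13 FGF ligand and receptor genes 11 were analysed, and the ligand gene Fgf8 was high in the 0 h and 5 h libraries. Fgf8 was at 18.4 CPM at 0 h, 1.36 at 96 h, 14.1 with BMP4 5 h, 15.8 with FGF8, 6.65 with BMP4 11 h and 2.08 with FGF4. Fgf17, Fgf9 and Fgf18 were also lower in culture, with log2 ratios of -5.32, -2.45 and -1.86, and Fgf10 and Fgfr3 higher, both at 1.41. With FGF4 added Fgf17, Fgf8 and Fgf9 were lower, at -2.65, -1.47 and -1.39. The names Fgf8, Fgf9, Fgf17 and Fgf18 were placed less securely in the table than the feedback genes. Fgfr1, the main receptor gene of the mesoderm, went only from 108 CPM at 0 h to 78.4 at 96 h. Among 8 of 10 BMP target genes analysed, Dlx5 was lower in culture (2.84 to 0.82 CPM) and none was called with FGF8 or FGF4 added. The 2 not analysed were Smad6 and Smad7. With BMP4 11 h over 96 h, 6 of the 8 were above 0 (median 0.28). There 1 was at least 2-fold higher, Id4 (1.35 to 5.28 CPM), beside 2.48% of all genes. The other BMP4 libraries did not share this lean. With BMP4 5 h, 6 of the 8 were below 0 against 0 h (median -0.03) and 5 against 96 h (median -0.15). With BMP4 and FGF4 over 96 h, 4 were above and 4 below 0 (median -0.03). Fgfr1 and Id4 were named after their values were seen.

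**Figure D4:**
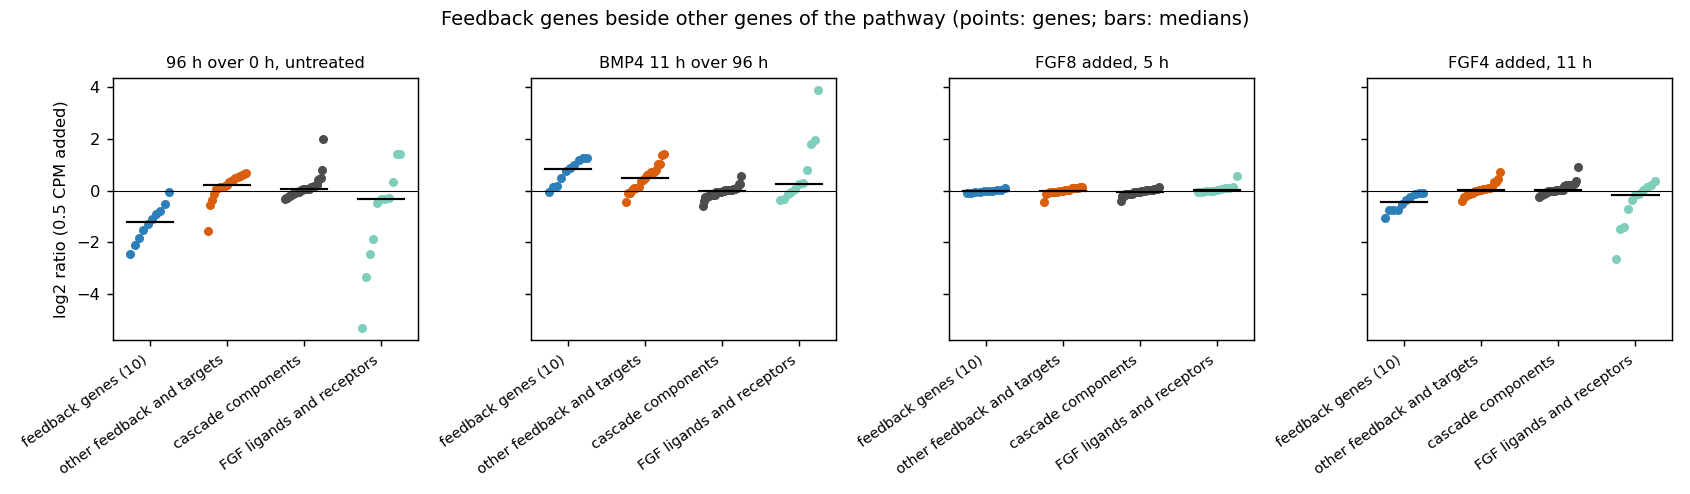
Log2 ratio (vertical axis, 0.5 CPM added) of the 10 feedback genes beside 19 other feedback and target genes, 30 cascade genes and 11 ligand and receptor genes in 4 comparisons, with 1 point per gene and the median as a bar. In culture the feedback genes have a median of -1.20 while the cascade genes lie near 0 (0.05), and with FGF8 all 4 medians are near 0.

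Likeness of profiles was measured as Pearson r of log2 levels over the 6 libraries, which for 6 points is a description only. Against the mean of the other 9 genes, r was 0.997 for Il17rd, 0.996 for Spry4, 0.994 for Etv4 and 0.988 for Etv5. It was lowest for Dusp4 (0.857) and Spred1 (0.736), the latter over a range of only 0.19 in log2. Among 370 other genes with a mean of at least 10 CPM and at least 2-fold between libraries, 122 had r above 0.9 with the mean of the feedback genes, so the pattern is common to many genes. The 10 most alike were Smoc1, Sulf1, Limch1, Pcdh8, Cdx2, Mylip, Greb1, Arid3b, Gcnt2 and Alpl, with r between 0.997 and 0.9998. Nearest to Spry4 alone were Gcnt2, Nkx1-2 and Arid3b, and nearest to Etv4 Sall4, Vwa2 and Cited1. Dusp4 had other neighbours, Enc1, Ddit4 and Jag1, at r between 0.972 and 0.986. All these values share the same 6 libraries and their differences in cell makeup.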

How the data were processed

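The authors deposited raw counts of reads per gene, not normalized, in 1 table of 6 columns. Tools listed without roles, per the submitters' processing notes, are STAR 2.4.0e, HTSeq, cutadapt and DESeq, with the build mm10. Per the labels' protocols, the library kit keeps strand. Between 65.4% and 70.9% of values from 1 to 20 are even, so fragments may be counted more than once, which would make the intervals too narrow.

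The growth factor columns hold 19415 to 19826 values beside 19342 names, so each was matched to the case-insensitively sorted names by an order-preserving alignment. It lets low rows be skipped or added and puts a cost on values beyond the span of the untreated pair. Kept were 16877 genes (97.2% to 97.3% of counts) whose placement was better than any alternative by 5 cost units or more in every column. The columns of the same hour also had to pair alike when aligned directly. Left out besides were genes placed over 2-fold outside the untreated range if a value near that range stood within 3 positions. This applied only where that value was unplaced or itself over 2-fold outside its own gene's range. Such a rule can remove strongly changed genes. Unplaced values and 4 repeated names were left out. For the 10 feedback genes the lowest margin was 24.2 units, and placement on either untreated column alone gave the same counts. It was 9.9 units for Fgf8 and Fgf9 and 7.1 for Fgf17 and Fgf18. On simulated columns 99.7% of 15047 genes with at least 200 untreated counts were kept, and 99.99% of those were right. Of genes given a change, 97.5% were kept in the column with the lowest share. These columns were mixed from the untreated pair, with changes drawn separately per column and no exchanged rows. The shares thus do not cover exchanged rows or changes common to both columns of an hour. Rows exchanged in the deposited order can still be misplaced, as in 2 stretches of the 5 h columns and perhaps 1 of the 11 h columns (at least 3 of 9 neighbours over 2-fold outside the untreated range in both columns), and values within the untreated range are favoured.

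Counts were scaled by TMM (edgeR 4.0.16, R 4.3.3), and genes with at least 1 CPM in any library were analysed. The edgeR quasi-likelihood fit over 4 libraries used hours and added FGF; DESeq2 1.42.0 was the alternative. Exon lengths and coordinates are from GENCODE M21 (GRCm38, the build of mm10). All 10 genes are named, and of other pathway lists those called in culture or with added FGF. Most alike profiles were ranked by Pearson r. The genes and lists were chosen with earlier results of these data known.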

Additional observations from a re-analysis of the deposited data

How the results depend on the processing

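Counts of feedback genes at least 2-fold different were recomputed with 10 alternatives (2 scalings, 2 pseudocounts, 2 filters, 3 placement settings, a 1.5-fold threshold). With a 1.5-fold threshold, 6 were higher for BMP4 11 h over 96 h (6.13% of all genes), 5 lower for BMP4 11 h over 5 h (1.76%), 4 lower for added FGF4 (2.72%) and 1 higher for BMP4 with FGF4 over 96 h (5.2%), in place of 3, 1, 1 and 0. The 1 call for added FGF4 (Etv4) became 0 with total counts and 0 with 2 CPM added. The 5 genes lower at 11 h in the edgeR fit became 0 with total counts, where 137 of all genes passed in place of 816; DESeq2 passed 1259 genes, and the same 5. Total counts move the median log2 ratio of all genes to -0.11 for 11 h over 5 h and to 0.11 for added FGF4; the cause was not tested. The other counts stayed within 1.5 times, no called gene changed direction, and the median for culture lay between -1.22 and -1.12. Leaving out 96 genes in 3 stretches of doubtful placement, chosen after seeing the data, changed no call of the 10; among all genes, BMP4 5 h lower than 0 h went from 32 to 17. Each of the 10 had at least 1275 counts in every library, and no condition was replicated.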
